A study of Oryza sativa with 8 samples.

Results

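Root tips of rice seedlings labelled calcium were compared with root tips labelled control, both without ethylene. The comparison rests on 4 of the 8 libraries of the series, 2 calcium and 2 control, which were chosen by their treatment label. All plants were of the variety Dongjin. Seeds germinated in the dark for 2 days at 37 °C and the seedlings then grew in the dark in closed boxes at 28 °C for 3 days, with calcium chloride at different concentrations. The labels give neither those concentrations nor which label stands for the low and which for the normal calcium supply of the study's design, so a higher level in calcium cannot be read as a response to more or to less calcium. The other 4 libraries, labelled calcium and ethylene, and ethylene, received ethylene gas at 2 ppm and are used here only beside the main comparison. The study's title places it in work on rice ethylene receptors and calcium permeability, and this comparison asks what the calcium supply alone does to transcript levels. The labels do not say whether the 2 libraries of a label were made from separate plants or cultures, so the p-values refer to the spread between libraries, part or all of which may be technical.

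Calcium has a double role in a plant root. In the wall it links pectin chains and so bears on how cells expand, and inside the cell short rises of free calcium act as a signal that is read by calmodulins, calcineurin B-like proteins and calcium-dependent protein kinases. Ethylene is perceived by receptors in the endoplasmic reticulum membrane and restrains root elongation in dark-grown rice seedlings. None of the genes of these pathways can be singled out in the table: its 57359 gene IDs carry no names, and 0 of them matched the 39387 genes of a rice RefSeq table. Genes are therefore described by their level, size of change and behaviour across libraries. The labelled tissue could not be checked against root tip markers for the same reason.

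The calcium libraries held 20753587 and 23812792 counts and the control libraries 20840669 and 21529126. At least 1 count was found for 27735 and 28140 genes in calcium and for 29077 and 27441 in control. The 100 genes of the highest mean TPM, a level that takes gene length into account, made up 17.2% and 17.3% of TPM in calcium and 17.4% and 17.1% in control. Depth, breadth and the weight of the most abundant transcripts thus overlapped between the groups.

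The main axis of variation among the 4 libraries did not follow the calcium label. On log2 CPM, the counts scaled to library size with TMM factors, the first principal component held 41.4% of the variance and placed calcium replicate 1 at -57.0 and control replicate 1 at -51.8, with calcium replicate 2 at 56.1 and control replicate 2 at 52.7. The second component, with 35.2%, set calcium replicate 2 at 69.9 apart from control replicate 2 at -72.0, with calcium replicate 1 at 4.07 and control replicate 1 at -1.95 between them, so that both calcium libraries lay above both control libraries. The third, with 23.4%, set calcium replicate 1 at -56.5 apart from control replicate 1 at 59.3, with calcium replicate 2 at 0.983 and control replicate 2 at -3.84. The first axis thus set the libraries numbered 1 apart from those numbered 2, and the labels do not say what the numbers mean.

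Among the 13865 genes that averaged 10 CPM or more over the 4 libraries, calcium replicate 1 and control replicate 1 were the most alike pair, although they belong to different groups. This holds for the median difference and for the number of 2-fold differences. They differed by 2-fold or more in 127 genes. Calcium replicate 2 differed from calcium replicate 1 in 527 genes, and control replicate 2 from control replicate 1 in 288 genes. The other pairs across groups gave 195 genes for calcium replicate 1 against control replicate 2, 475 for calcium replicate 2 against control replicate 2 and 744 for calcium replicate 2 against control replicate 1. At 4-fold the order changed: the pair numbered 1 differed in 31 genes and the pair numbered 2 in 11. Calcium replicate 1 and control replicate 2 differed in 14, calcium replicate 2 and control replicate 1 in 74. The calcium libraries differed in 30 and the control libraries in 45. The log2 difference had a median size of 0.24 within calcium and 0.19 within control, and between 0.15 and 0.28 across the groups. Libraries of the same label thus differed by amounts that lay inside the range found between labels.

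Calcium replicate 2 stood furthest from the others. It was at least 2-fold higher than each of the other 3 libraries in 21 genes of 10 CPM or more, and at least 2-fold lower than each in 149. Control replicate 1 was higher than each of the others in 61 genes and lower in 8, control replicate 2 higher in 8 and lower in 21, and calcium replicate 1 higher in 2 and lower in 8. The 149 genes low in calcium replicate 2 had median levels of 10.9 CPM there, 29.5 CPM in calcium replicate 1, 34.8 CPM in control replicate 1 and 28.2 CPM in control replicate 2. These genes were picked for that gap, which describes the library, and whether calcium has a part in it was not tested. In the ethylene-treated libraries, which the picking did not use, their medians were 26.3 and 30.4 CPM in calcium and ethylene. In ethylene they were 47.3 and 68.2 CPM.

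**Figure D1:**
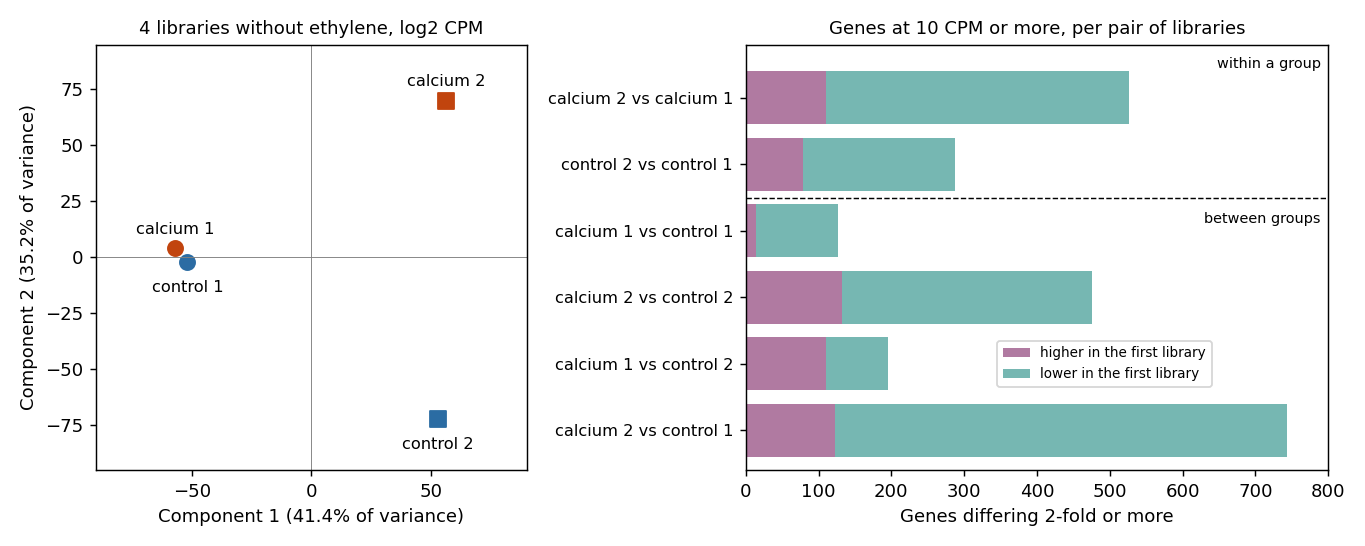
Left, principal components 1 and 2 of log2 CPM of the 4 libraries without ethylene (calcium red, control blue, circles replicate 1, squares replicate 2); right, number of genes of 10 CPM or more that differ 2-fold or more in each pair of libraries. Calcium replicate 1 lies beside control replicate 1, and that pair has the fewest 2-fold differences, 127 genes, while the calcium replicates differ in 527.

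No transcript passed the test between calcium and control. Of 27008 genes tested, 0 (0%) had an adjusted p under 0.05 by edgeR's quasi-likelihood test with Benjamini-Hochberg adjustment, with a lowest adjusted p of 1 and a lowest unadjusted p of 0.000327. In RNA from whole root tips, fewer cells of a type and less RNA per cell cannot be told apart. Before adjustment, 1037 genes (3.84% of those tested) had a p under 0.05, of which 330 (1.22%) were higher and 707 (2.62%) lower in calcium. Chance alone would give about 1350, so the 1037 are no excess. Among the 13865 genes of 10 CPM or more, 409 (2.95%) had such a p. By DESeq2, 7 of 35620 genes were called, and 15 of 35620 by edgeR when low counts were not filtered out.

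The genes called in those alternatives were few, and some rested on 1 library. By DESeq2, 2 were higher and 5 lower in calcium, at means between 1.27 and 16.5 CPM over the 4 libraries. In 5 of these 7 genes the groups did not overlap. Both of the higher ones were at 0 counts in both control libraries and in calcium replicate 1, with 501 and 613 counts in calcium replicate 2 alone. Without the filter on low counts, edgeR called 1 gene higher and 14 lower in calcium, at means from 0.162 to 85.8 CPM, and their groups did not overlap. In 6 of these 15 genes a group was at 0 in both libraries. The lists shared 2 genes.

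How small a change the libraries could have shown depended on the level of the gene. The 95% interval of the fold change lay within 2-fold in either direction for 87.9% of the 1936 genes at 100 CPM or more, for 81.9% of the 11929 genes at 10 to 100 CPM and for 23% of the 9145 genes at 1 to 10 CPM. Under 1 CPM, where 3998 genes were tested, it did so for 0%. Within 1.5-fold lay 46.6% of the intervals at 100 CPM or more and 29.7% of those at 10 to 100 CPM. The median half-width of the interval was a factor of 1.36 at 100 CPM or more, 1.43 at 10 to 100 CPM, 1.97 at 1 to 10 CPM and 7.88 under 1 CPM. For most transcripts of 10 CPM or more a difference beyond 2-fold was thus outside the interval, while under 1 CPM the interval of a typical gene left room for several-fold differences in either direction.

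**Figure D2:**
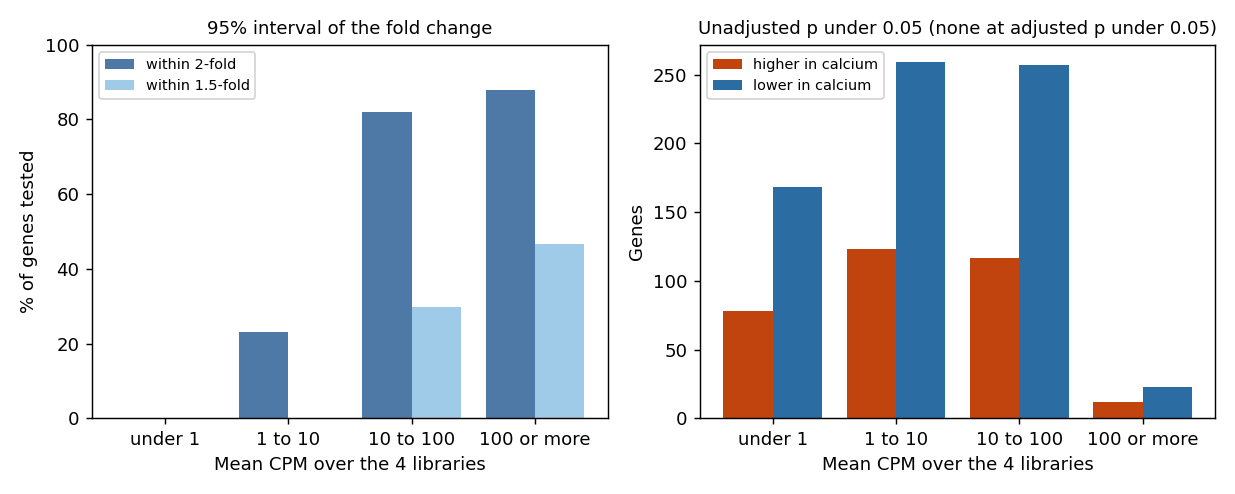
By bin of mean CPM over the 4 libraries: left, percent of tested genes whose 95% interval of the fold change lies within 2-fold (dark) or 1.5-fold (light); right, number of genes at an unadjusted p under 0.05, higher (red) or lower (blue) in calcium. The share within 2-fold is 87.9% at 100 CPM or more and 23% at 1 to 10 CPM, and genes lower in calcium outnumber higher ones in each bin.

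After TMM scaling the bulk of the transcriptome sat close to no difference. TMM centres the libraries on each other, so a median near 0 is largely set by the scaling. A shift shared by most genes would not show. Among genes of 10 CPM or more the median log2 fold change of calcium over control was 0.013, the middle 50% lay between -0.16 and 0.16, and the central 90% between -0.48 and 0.384. The 100 most abundant transcripts, with mean levels of 1050 to 7090 TPM, had a median log2 fold change of 0.13, and 84 of them had an interval within 2-fold. By the chromosome number that each ID carries, the median log2 fold change of genes of 10 CPM or more ran from -0.013 for chromosome 9 to 0.031 for chromosome 11. Genes of 10 CPM or more were split by length into 4 bins of about equal size. The median log2 fold change was 0.0091 in the bin of 138 to 1349 bases and 0.020 in that of 2661 to 16387 bases. The shortest bin held 106 genes lower and 37 higher in calcium at an unadjusted p under 0.05, and the longest 37 lower and 23 higher, against 280 (2.02%) and 129 (0.930%) among all genes of 10 CPM or more.

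Some transcripts were seen in one group alone. A count in any of the 4 libraries was found for 31608 genes, tested or not. Of these, 191 had at least 1 count in both calcium libraries and 0 in both control libraries, and 292 the reverse. With 20 or more counts summed over the 2 libraries, 60 genes were found in calcium at 0 in both control libraries, and 81 in control at 0 in both calcium libraries. With 20 or more counts in each of the 2 libraries there were 0 of either kind. Within calcium, 162 genes had 0 counts in replicate 1 and 20 or more in replicate 2, and 45 the reverse. Within control, 92 genes had 0 counts in replicate 1 and 20 or more in replicate 2, and 89 the reverse.

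Groups that did not overlap were common, and most of these differences were under 2-fold. With 2 libraries a side, labels given at random would separate the groups in about as large a share of genes. The numbers of genes without overlap are therefore no excess. Both calcium libraries lay above both control libraries, or below them, in 8557 of the tested genes, or 31.7%, with 4480 (16.6%) higher and 4077 (15.1%) lower in calcium. With a difference of at least 2-fold between group means as well, 1412 genes (5.23%) remained, 616 (2.28%) higher and 796 (2.95%) lower. Among genes of 10 CPM or more, 4759 (34.3%) did not overlap, and 58 (0.418%) were also at least 2-fold apart, 7 (0.0505%) higher and 51 (0.368%) lower in calcium.

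The 51 lower genes had mean levels of 10.1 to 456 CPM. Their median was 11.4 CPM in calcium replicate 1 and 10.6 CPM in calcium replicate 2, against 38.2 CPM in control replicate 1 and 20.2 CPM in control replicate 2. Their summed level was 1430 and 1060 CPM in the calcium libraries, against 5490 CPM in control replicate 1 and 1860 CPM in control replicate 2. Calcium replicate 2 was below calcium replicate 1 in 40 of the 51 genes, and control replicate 1 above control replicate 2 in 43, with the wider gap between the control libraries. Without control replicate 1, 16 of the 51 were still 2-fold lower, with a median log2 difference of -0.70 in place of -1.22. Without calcium replicate 2, 29 were, with a median of -1.11. Without calcium replicate 1, 48 were, and without control replicate 2, 47 were, each with a median of -1.62. Of the 51, 43 had an unadjusted p under 0.05, against 2.02% lower at that p among all genes of 10 CPM or more, which largely follows from picking them on these libraries, and their adjusted p was 1.

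The excess of lower over higher genes also rested on control replicate 1. In all 4 libraries, 13 genes of 10 CPM or more were at least 2-fold higher and 73 at least 2-fold lower in calcium by group means. Without control replicate 1 the numbers were 78 higher and 54 lower. They were 14 and 83 without calcium replicate 2, 39 and 164 without control replicate 2 and 74 and 438 without calcium replicate 1. The direction of the excess thus turned without control replicate 1, where control replicate 2 stood alone in its group. In calcium and ethylene against ethylene, 1460 genes were lower and 616 higher at an edgeR unadjusted p under 0.05. That comparison does not use control replicate 1, though its fit does.

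The 51 lower genes were numbered on 11 of the 12 chromosomes, with at most 8 on any of them. Their median length was 1195 bases, against 1916 bases for all genes of 10 CPM or more. The 7 higher genes were shorter still, with a median of 861 bases, so short length was not particular to the lower genes. In the ethylene-treated libraries the 51 lower genes had medians of 23.4 and 22.7 CPM in calcium and ethylene, against 73.0 and 55.0 CPM in ethylene. Of the 51, 49 were lower in calcium and ethylene than in ethylene, 29 by at least 2-fold, with a median log2 fold change of -1.18. Of the 6643 genes of 10 CPM or more with any lower value in calcium than in control, 69.1% were lower there, 303 of them by at least 2-fold. Among the 51, an unadjusted p under 0.05 for that difference was reached by 25 in the lower direction and 0 in the higher. Of the 6643 genes with any lower value in calcium than in control, 813 (12.2%) reached it in the lower direction. Among all 13865 genes of 10 CPM or more, 904 (6.52%) did. The 7 higher genes had medians of 20 and 23.7 CPM in calcium, against 8.75 and 6.75 CPM in control, and 5 of them were also higher in calcium and ethylene than in ethylene, of which 0 had an unadjusted p under 0.05.

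**Figure D3:**
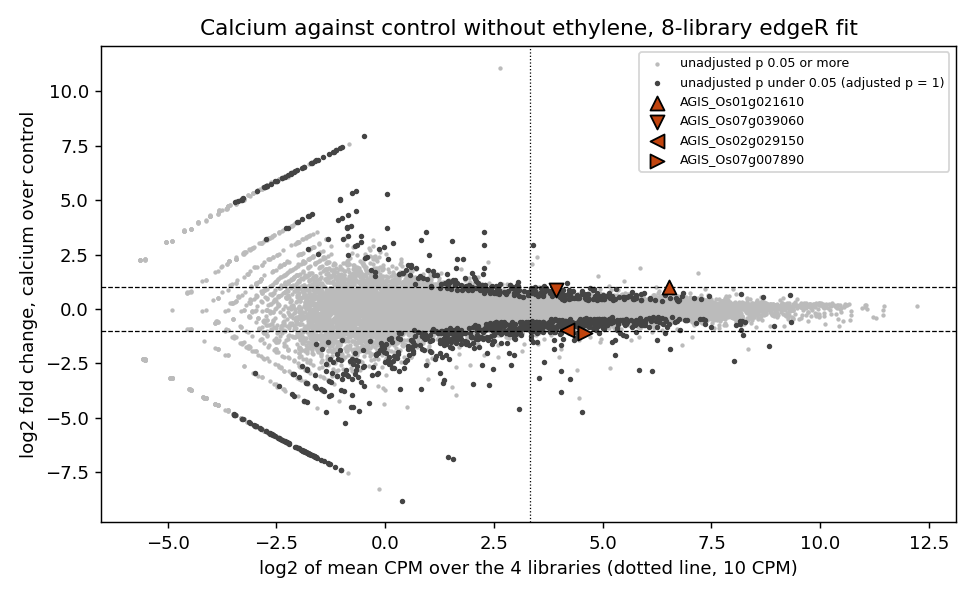
Log2 fold change of calcium over control against log2 mean CPM of the 4 libraries, for the genes tested (grey), those at an unadjusted p under 0.05 (black) and the 4 named genes (red symbols); dashed lines mark 2-fold and the dotted line 10 CPM. The spread narrows with level, and to the right of the dotted line 58 genes have groups that do not overlap and means 2-fold or more apart.

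The IDs of 4 genes are given in full, the 2 higher and the 2 lower in calcium with the lowest unadjusted p among genes of at least 5 CPM whose groups did not overlap. They were picked for this difference, so their values describe it and do not test it. AGIS_Os01g021610, of 510 bases, had 141 and 103 CPM in calcium, against 68.9 and 53.7 CPM in control. The groups did not overlap, and the means were 122 ± 27.0 CPM in calcium and 61.3 ± 10.7 CPM in control (SD, n = 2 each). Its log2 fold change was 0.99 (SE 0.25, 95% interval 0.41 to 1.57), with an edgeR adjusted p = 1. With ethylene it was far lower, at 11.9 and 18.5 CPM in calcium and ethylene and 9.85 and 8.61 CPM in ethylene, and both of the calcium libraries again lay above their counterparts, with a log2 fold change of 0.72 (SE 0.27, edgeR adjusted p = 0.629).

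AGIS_Os07g039060, of 1781 bases, had 21.0 and 18.2 CPM in calcium, against 12.1 and 9.5 CPM in control. Its log2 fold change was 0.86 (SE 0.23, 95% interval 0.34 to 1.38, edgeR adjusted p = 1). In the ethylene-treated libraries it had 13.3 and 14.7 CPM in calcium and ethylene, against 11.7 and 13.1 CPM in ethylene, a log2 fold change of 0.17 (SE 0.23, edgeR adjusted p = 0.845). There the values nearly met.

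AGIS_Os02g029150, of 809 bases, had 13.0 and 11.4 CPM in calcium, against 25.4 and 22.3 CPM in control. These replicates were close, at 12.2 ± 1.15 CPM in calcium and 23.8 ± 2.17 CPM in control (SD, n = 2 each). Its log2 fold change was -0.97 (SE 0.18, 95% interval -1.37 to -0.56, edgeR adjusted p = 1). With ethylene the groups overlapped, with 33.8 and 35.3 CPM in calcium and ethylene and 34.1 and 34.0 CPM in ethylene, a log2 fold change of 0.02 (SE 0.17). The difference between the calcium effects with and without ethylene was 0.99 on the log2 scale, with an edgeR unadjusted p of 0.0036 and adjusted p = 1. The gene was picked on the difference without ethylene, which enters this value, so that p is no test of it.

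AGIS_Os07g007890, of 1381 bases, had 17.1 and 13.8 CPM in calcium, against 38.2 and 27.5 CPM in control. Its log2 fold change was -1.09 (SE 0.22, 95% interval -1.60 to -0.58, edgeR adjusted p = 1). In the ethylene-treated libraries it had 8.60 and 7.94 CPM in calcium and ethylene, against 35.4 and 32.9 CPM in ethylene. That log2 fold change of -2.04 (SE 0.23) had the lowest unadjusted p of its comparison, 1.26e-05, and an edgeR adjusted p = 0.281. This ID was thus lower with the calcium label both without and with ethylene, and neither difference passed the test.

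**Figure D4:**
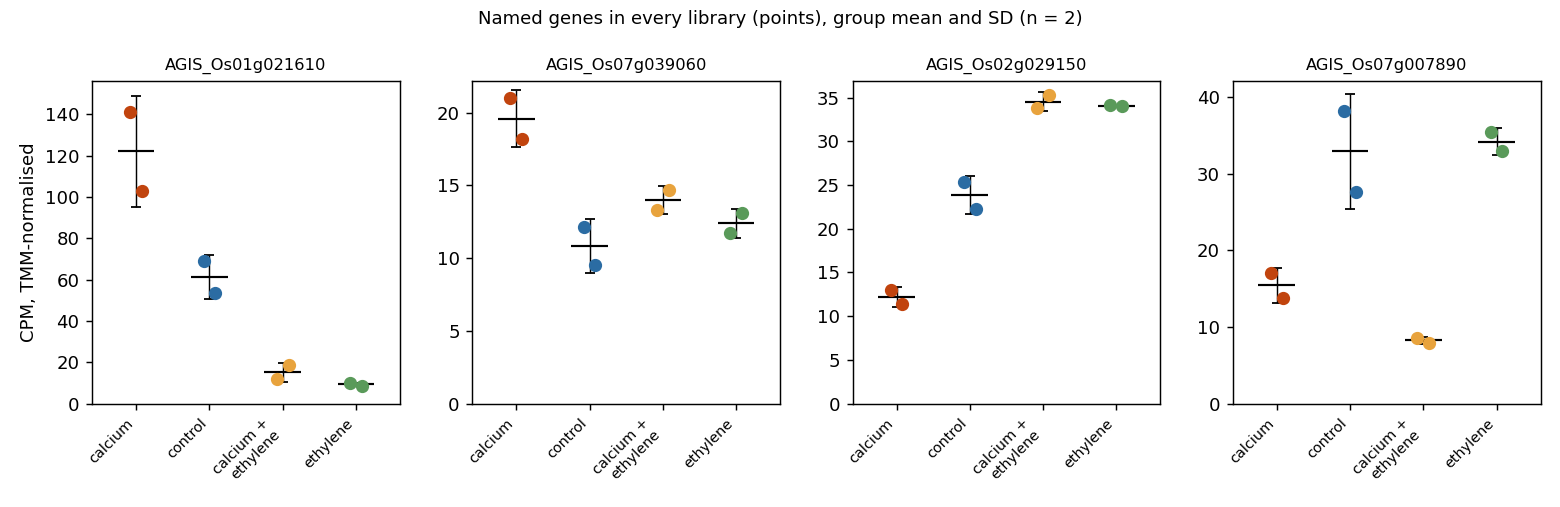
TMM-normalised CPM of the 4 named genes in each of the 8 libraries (points), with the group mean and SD as bars (n = 2). Calcium and control do not overlap for any of the 4, by the rule that picked them; with ethylene, AGIS_Os07g007890 keeps the gap while AGIS_Os02g029150 has 33.8 and 35.3 CPM in calcium and ethylene and 34.1 and 34.0 CPM in ethylene.

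The same calcium labels were compared in the presence of ethylene, in 4 libraries that share none with the main comparison. There edgeR called 0 of 27008 genes (0%), with 2076 (7.69%) at an unadjusted p under 0.05, where chance alone would give about 1350. DESeq2 called 192 of 35620 genes, and edgeR with no filter on low counts 116 of 35620. The edgeR count stayed 0 with RLE factors in place of TMM, with a filter of 1 CPM in 2 libraries and in the fit of genes of 10 CPM or more. Genes of 10 CPM or more at an unadjusted p under 0.05 without ethylene mostly lay on the same side with it. Of the 280 lower in calcium than in control, 252 (90%) were lower in calcium and ethylene than in ethylene. The share was 69.1% among the 6643 genes of that level with any lower value in calcium. Of the 129 higher genes, 108 (83.7%) were also higher with ethylene, against 71.4% of the 7222 genes with any higher value.

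The size was smaller in the libraries that had not picked the genes. On the log2 scale the 280 lower genes had a median difference in their own direction of 0.53 with ethylene and 0.664 without it, and the 129 higher genes of 0.33 with ethylene and 0.598 without it. An edgeR unadjusted p under 0.05 in the same direction was reached with ethylene by 125 of the 280 (44.6%) and by 26 of the 129 (20.2%). Among genes of 10 CPM or more with any lower value in calcium the share was 12.2%, and with any higher value 4.89%. Among all genes of that level, whatever their sign without ethylene, 6.52% reached it in the lower and 2.99% in the higher direction. In the opposite direction it was reached by 0 of the 280 and 0 of the 129. Both comparisons came from 1 fit and share its estimate of each gene's spread.

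The agreement in sign held over single libraries but varied. Genes of 10 CPM or more picked at an unadjusted p under 0.05 kept their sign with ethylene in 78% of cases without control replicate 1, where 63.8% of all genes of that level did, and in 78.2% without calcium replicate 2, where 58.9% of all did. They did so in 92.6% without control replicate 2, against 70.5% of all, and in 90.2% without calcium replicate 1, against 71.4% of all. No gene had an adjusted p under 0.05 by edgeR for a difference between the calcium effects with and without ethylene (0% of 27008). An unadjusted p under 0.05 was found for 644, where chance alone would give about 1350.

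**Figure D5:**
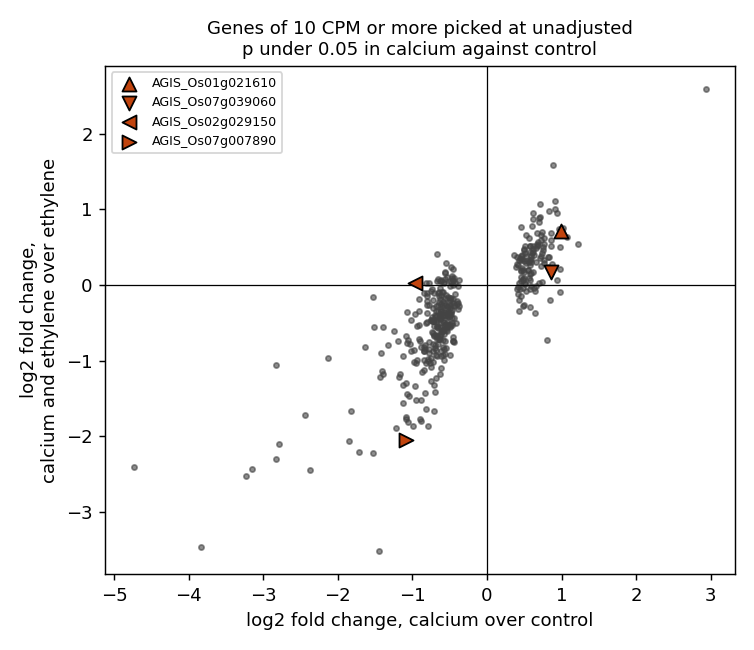
Log2 fold change of calcium and ethylene over ethylene against that of calcium over control, for genes of 10 CPM or more picked at an unadjusted p under 0.05 in calcium against control, with the 4 named genes in red. Of the 280 genes left of 0, 252 lie below 0 on the vertical axis, and of the 129 right of 0, 108 lie above it.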

How the data were processed

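Gene counts of 8 poly(A) RNA libraries were analysed, 4 of them here. The authors deposited whole-number counts per gene with gene lengths. Per the submitters' processing notes, fastp handled the reads and featureCounts counted them, with no version stated. How strand was set, and which aligner, build and annotation were used, is not given in the sources used here. Overlapping, antisense or near-identical genes therefore cannot be told apart. Intervals cover the spread between libraries, and amplified reads are not independent molecules.

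Analysis used R 4.3.3, edgeR 4.0.16, limma 3.58.1 and DESeq2 1.42.0. Genes passed filterByExpr with a minimum count of 10 (27008 genes, 99.9% of counts), of which 196 had no count in the 4 libraries. After TMM, a robust quasi-likelihood model of 4 groups was fitted to all 8 libraries, with 4 residual degrees of freedom, and p-values were adjusted by Benjamini-Hochberg over all genes tested (threshold 0.05). The fit was tested on simulated counts. For log2 CPM the prior count was 2. The IDs named are the 2 higher and 2 lower genes of lowest unadjusted p among those of at least 5 CPM without overlap. A list of calcium signalling genes could not be filled, since no ID carries a name. Comparisons, rules and thresholds were chosen with earlier results of these data known. Alternatives were RLE factors, DESeq2 on unfiltered counts, other filters, only the 4 libraries, the replicate number as a block and leaving out each library. Figures used Python 3.11.15 and matplotlib 3.10.9.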

Additional observations from a re-analysis of the deposited data

How the results depend on the processing

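The fits without each ethylene-treated library, the fit of genes with a mean of 10 CPM or more, and the alternatives for the comparison with ethylene were chosen after seeing the data. The 0 called genes became 7 with DESeq2 and 15 with no filter on low counts, and stayed 0 under the other 14 alternatives, each library left out included. The 1037 genes at an unadjusted p under 0.05 became 479 in the fit of genes of 10 CPM or more, where fewer genes were tested, and 854 to 2221 with 1 library left out, the highest without calcium replicate 1. The share of genes of 10 CPM or more with an interval within 2-fold, 82.7%, was 84.6% with DESeq2, 86.3% with no filter, 85.3% with only the 4 libraries, 83.4% in the fit of genes of 10 CPM or more and 61.6% to 85.8% with 1 library left out. The 1412 genes without overlap at 2-fold were 60 in the fit of genes of 10 CPM or more and 1632 to 4036 with 1 library left out, at the high end without a calcium or control library, where 1 library stood alone in its group. Of the genes at an unadjusted p under 0.05 at any level, 73.9% had the same sign with ethylene; this was 88.9% in the fit of genes of 10 CPM or more and 59.3% to 79.5% with 1 library left out. A lone library left in a group is assumed to vary like the others. Apart from fewer genes or libraries, the cause was not tested. The 4 named genes were picked for groups that did not overlap, so leaving out 1 library could hardly turn their direction. The other alternatives reuse the same counts. Each of the 4 named genes kept its direction under 16 alternatives and passed the test in 0 of them (adjusted p from 0.0704 to 1).

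No pairing by replicate number was assumed, because the labels leave its meaning open and only 2 pairs exist. The difference of replicate 2 from replicate 1 correlated across genes at 0.18 between calcium and control (0.353 for genes of 10 CPM or more). With the replicate block 0 genes were called, 1562 had an unadjusted p under 0.05 and 89.1% of intervals lay within 2-fold. In that fit 79.1% of the genes of 10 CPM or more at an unadjusted p under 0.05 had the same sign with ethylene, against 57.3% of all genes of that level. There the difference with ethylene rests on replicate 3 alone, the only number that both ethylene-treated groups share. With the block and only the 4 libraries, 0 genes were called, 1569 had an unadjusted p under 0.05 and 90% of intervals lay within 2-fold. Either block fit left 1 residual degree of freedom.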
